A study of Mus musculus with 10 samples.

Results

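Transcripts of 10 enzymes that make prostaglandins, thromboxane and leukotrienes were followed in myeloid cells of tumor-bearing mice. They were taken from a table of 55421 genes by symbol, and the set was chosen on gene function with measured values of these cells already known, so their counts and fold changes below are descriptions and carry no test. The prostanoid branch held Ptgs1, Ptgs2, Ptges, Hpgds and Tbxas1, and the leukotriene branch held Alox5, Alox5ap, Lta4h, Ltc4s and Mgst2. All 10 were found in the table and all 10 passed the filter on low counts in every comparison. RNA was sequenced in bulk from myeloid-derived suppressor cells (MDSC) of the spleen and from tumor-associated macrophages (TAM) of the tumor, at day 15 after mice received MC17-51 cells, a mouse fibrosarcoma line. Every mouse carried floxed Ptpn11, the gene of the phosphatase SHP-2 (Shp2f/f). In Shp2f/fLysMcre mice, Cre recombinase expressed from the Lyz2 (lysozyme M) locus also deleted the floxed segment in myeloid cells, and Cre-free Shp2f/f mice served as controls. Each MDSC group held 2 libraries and each TAM group held 3. MDSC were GR1-high Ly6G+ Ly6C- cells taken with magnetic beads, TAM were sorted as CD45+ CD11b+ F4/80+ Ly6G- cells of the same animals, and whether a library pooled several young adult mice was not given in the sources used here.

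Eicosanoids are short-lived lipid mediators made from arachidonic acid that phospholipases release from membranes. Cyclooxygenases turn it into prostaglandin H2, which terminal synthases convert into prostaglandin E2, prostaglandin D2 or thromboxane A2. In the other branch, 5-lipoxygenase and its activating protein make leukotriene A4, which becomes either the neutrophil attractant leukotriene B4 or the cysteinyl leukotrienes. Neutrophils are known for the leukotriene B4 route, and tumor macrophages for prostaglandin E2.

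Levels are in CPM, which are counts divided by library sizes that TMM factors adjusted over all 10 libraries, unless a level per kilobase (RPKM) is named. Total counts lay between 33262119 and 36541823 in MDSC and between 28844660 and 38222998 in TAM. Ptpn11, the targeted gene, was called lower in TAM of Shp2f/fLysMcre mice at -1.24 on the log2 scale (SE 0.0386, adjusted p of edgeR = 2.96e-09). In MDSC it was not called, at -0.29 on that scale (SE 0.143, adjusted p of edgeR = 0.361). Lyz2, the locus that carries Cre, was at 8960 and 9457 CPM in Shp2f/f MDSC and at 43.3 and 47.1 CPM in Shp2f/fLysMcre MDSC. In TAM, Lyz2 was at 3435 to 3664 CPM in Shp2f/f and at 9 to 13 CPM in Shp2f/fLysMcre libraries. Deletion of Ptpn11, the lower Lyz2 and the presence of Cre thus cannot be told apart in any comparison between genotypes. The part of Lyz2 and Cre in the results was not tested. The 4 MDSC libraries, labelled Ly6G+, held little Ly6g transcript (8.91 to 33.2 CPM) beside 1030 to 1441 CPM of the macrophage gene Csf1r, so the label rests on the isolation and on the other neutrophil genes. Csf1r was at 1419 and 1441 CPM in Shp2f/f MDSC and at 1425 to 1503 CPM in Shp2f/f TAM. A list of 11 neutrophil genes summed to between 9952 and 10296 CPM in Shp2f/f MDSC and between 28003 and 31851 CPM in Shp2f/fLysMcre MDSC. Of the 11, 6 were called higher, where 3.76% of all genes tested in MDSC were called higher. Sums over marker lists are CPM of the total count, and single markers are in TMM-scaled CPM like the enzymes. A list of 9 macrophage genes summed to between 9601 and 9888 CPM in Shp2f/f TAM and between 13063 and 13520 CPM in Shp2f/fLysMcre TAM. There 9 of 9 were called higher, where 23.9% of all genes tested in TAM were called higher. In MDSC the same list summed to 2544 to 2634 CPM in Shp2f/f and 2007 to 2120 CPM in Shp2f/fLysMcre libraries, with 0 of 9 called. Fibroblast genes summed to 688.9 CPM in MDSC Shp2f/fLysMcre replicate 2, against 10.9 to 29.9 CPM in the other MDSC libraries, so that library stands apart. Xist was at 0.0298 to 18.5 CPM in the Shp2f/f libraries and at 130.2 to 350.4 CPM in the Shp2f/fLysMcre libraries, while 4 Y-linked genes summed to between 185.3 and 200.3 CPM and between 74.3 and 84.3 CPM. Every Shp2f/fLysMcre library held Xist and Y-linked transcripts together, so these libraries held RNA of both male and female cells and not of 1 mouse alone. The study states that both sexes were used in equal numbers. Transcripts of the sex chromosomes thus differed with the genotype, and genotype and the sex make-up of the libraries cannot be told apart in any comparison between genotypes. In bulk RNA, fewer cells of a type and less RNA per cell cannot be told apart either.

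In MDSC, 1 enzyme of each branch stood clearly higher in Shp2f/fLysMcre than in Shp2f/f cells: Ptgs1, the constitutive cyclooxygenase COX-1, and Mgst2, a microsomal glutathione transferase that can make leukotriene C4. Alox5 (5-lipoxygenase) and Lta4h also lay above the controls in both libraries, with a wider spread. The inducible cyclooxygenase Ptgs2 and the abundant Alox5ap overlapped between the genotypes. The comparison asked whether the Shp2f/fLysMcre genotype went with another transcript level in the splenic cells. A gene was called at a Benjamini-Hochberg adjusted p under 0.05 over all genes tested, and 2 of the 10 enzymes were called, both higher, where 4.28% of all 14806 genes tested were called, 3.76% higher and 0.52% lower. The groups did not overlap for 7 of the 10, as for 48.9% of all genes tested.

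Of the cyclooxygenases, Ptgs1 (ENSMUSG00000047250) was at 16.9 and 17.4 CPM in Shp2f/f MDSC and at 54.7 and 58.6 CPM in Shp2f/fLysMcre MDSC. The log2 fold change was 1.72 (SE 0.108), which is a 3.29-fold higher level. Both libraries of one genotype lay close together and far from both libraries of the other. Ptgs2, or COX-2, was at 65.9 and 56.6 CPM in Shp2f/f and at 84.7 and 56.1 CPM in Shp2f/fLysMcre MDSC, with a log2 fold change of 0.20 (SE 0.220). Per kilobase of exon, Ptgs2 held 75.1 ± 2.4% (SD, n = 2) of the summed cyclooxygenase RPKM in Shp2f/f MDSC and 50.8 ± 8.46% (SD, n = 2) in Shp2f/fLysMcre MDSC. The transcript mixture of COX-1 and COX-2 was thus near parity in the latter group.

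The terminal prostanoid synthases were low in MDSC. Ptges, the inducible microsomal prostaglandin E synthase, was at 3.05 and 3.92 CPM in Shp2f/f and at 4.36 and 7.34 CPM in Shp2f/fLysMcre MDSC (log2 fold change 0.74, SE 0.306). Hpgds, the hematopoietic prostaglandin D synthase, was at 1.48 and 2.05 CPM and at 1.73 and 4.31 CPM (log2 fold change 0.77, SE 0.469). The higher value of each in Shp2f/fLysMcre belonged to replicate 2, the library with the fibroblast transcripts. Tbxas1, the thromboxane synthase, was at 12.1 and 13.0 CPM in Shp2f/f and at 14.5 and 13.7 CPM in Shp2f/fLysMcre MDSC (log2 fold change 0.16, SE 0.128). None of these 3 synthases was called. Without Shp2f/fLysMcre replicate 1, leaving replicate 2 alone, Ptges and Hpgds were called higher, while the log2 fold change of Hpgds was -0.02 without replicate 2. The part of the fibroblast transcripts in these values was not tested.

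In the leukotriene branch, Alox5 was at 30.8 and 23.9 CPM in Shp2f/f MDSC and at 76.8 and 50.5 CPM in Shp2f/fLysMcre MDSC. Its log2 fold change of 1.22 (SE 0.243) did not reach the call, although the groups did not overlap. Alox5ap, whose product FLAP presents arachidonic acid to 5-lipoxygenase, was the most abundant member in MDSC at 1253 and 1407 CPM in Shp2f/f and 1117 and 1293 CPM in Shp2f/fLysMcre (log2 fold change -0.15, SE 0.135). Lta4h, the hydrolase that makes leukotriene B4, was at 219 and 232 CPM in Shp2f/f and at 377 and 288 CPM in Shp2f/fLysMcre MDSC (log2 fold change 0.55, SE 0.167). It was not called either, and both were called higher with DESeq2 in place of edgeR. Alox5 and Lta4h had their higher Shp2f/fLysMcre value in replicate 1, the library with few fibroblast transcripts.

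For the last step of cysteinyl leukotriene synthesis, Mgst2 (ENSMUSG00000074604) was at 7.52 and 7.56 CPM in Shp2f/f MDSC and at 26.5 and 30.6 CPM in Shp2f/fLysMcre MDSC. With a log2 fold change of 1.91 (SE 0.131), or 3.77-fold, it was the member with the widest gap. Ltc4s, the dedicated leukotriene C4 synthase, stayed near 1 CPM, with 1.07 and 0.86 CPM in Shp2f/f and 1.25 and 2.25 CPM in Shp2f/fLysMcre (log2 fold change 0.84, SE 0.379). Ltc4s was not called, and its highest MDSC value again came from Shp2f/fLysMcre replicate 2.

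The MDSC calls depended on the libraries kept. Without either of the Shp2f/f libraries 1 gene was called among all genes and 0 of the 10 enzymes, although the log2 fold changes stayed between 1.68 and 1.74 for Ptgs1 and between 1.82 and 1.98 for Mgst2 over all 4 omissions. With Shp2f/fLysMcre replicate 2 left out, the library with the fibroblast transcripts, 5 of the 10 were called, all higher, where 12.7% of all genes tested were called higher and 5.34% lower. Without replicate 1 it was 6, all higher, where 16.3% were called higher and 10.9% lower. Neutrophil marker genes moved with these enzymes, and so did lists of other cells. Erythroid genes summed to 210.8 to 241.3 CPM in Shp2f/f MDSC and 399.8 to 599.4 CPM in Shp2f/fLysMcre MDSC, with 5 of 7 called higher. Mast cell and basophil genes summed to 23.4 to 24.5 CPM and 40.9 to 49.6 CPM, with 3 of 6 tested genes called higher. T and NK cell genes summed to 15.1 and 15.2 CPM in Shp2f/f and to 29.1 and 35.5 CPM in Shp2f/fLysMcre MDSC, with 1 of 5 called higher. B cell genes summed to 27.5 and 36.6 CPM and to 17.4 and 17.6 CPM, with 2 of 5 called lower. Among all genes tested in MDSC, 3.76% were called higher and 0.52% lower. The part of these markers in the results was not tested.

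**Figure D1:**
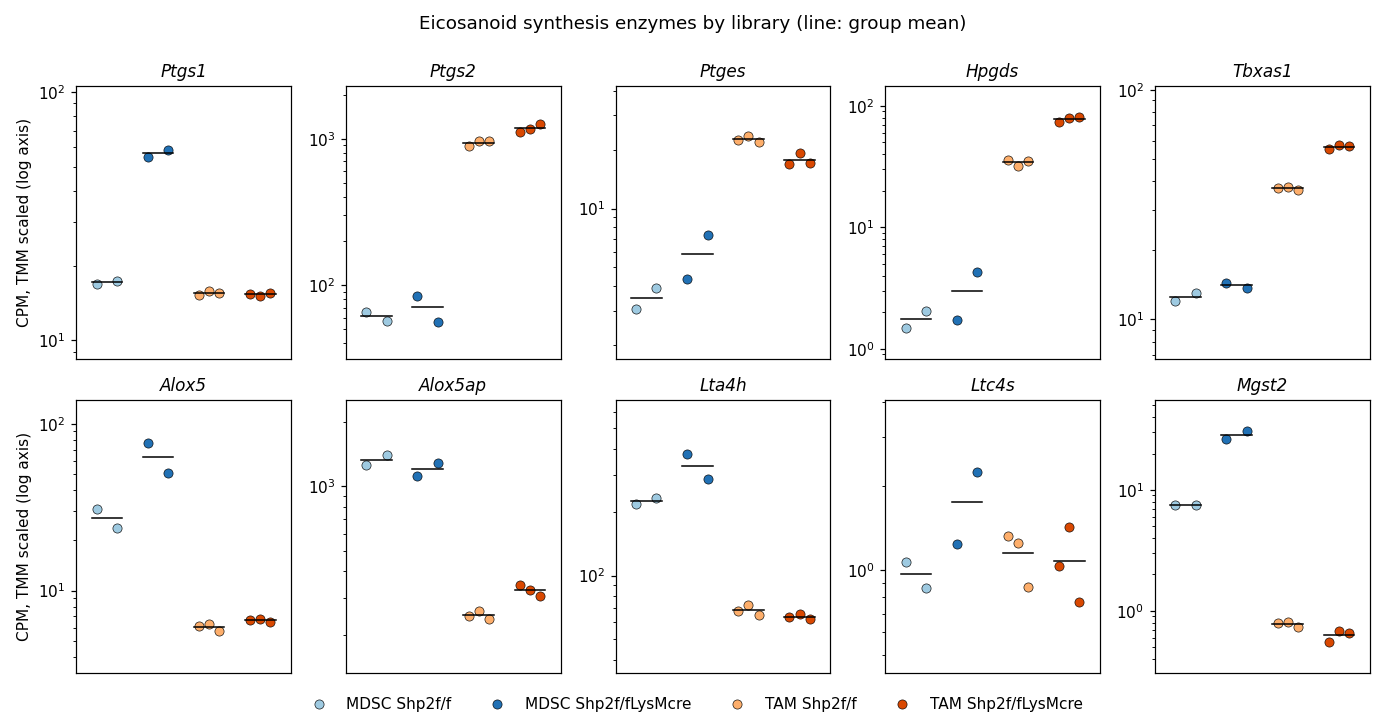
Level of each enzyme in every library, in CPM on a log axis whose range differs between panels; each point is 1 library, the line is the group mean, and colors give cell type and genotype. Ptgs1 and Mgst2 of Shp2f/fLysMcre MDSC stand above Shp2f/f MDSC without overlap, Hpgds and Tbxas1 of Shp2f/fLysMcre TAM stand above Shp2f/f TAM, and Ptgs2 is far higher in TAM than in MDSC.

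The starts of both genes called in MDSC were read from a table of RefSeq promoters (GRCm38.p6), in which 9 of the 10 members were matched, to show what lies just upstream of the pair that rose together. The 250 bases before each RefSeq start are given 5′ to 3′ on the gene's own strand. In the GENCODE annotation used for the levels, Mgst2 starts at base 51660360, so its window lies wholly inside the gene there. Searched letters, on both strands, were TATAAA (the TATA box), GAGGAAGT (a core of the myeloid factor PU.1), TTGCNNAA (C/EBP), TGACGTCA (CRE) and CACGTG (E-box), all picked with these sequences in view. Capitals mark every match.
Ptgs1 (chr2:36230176-36230425, plus strand): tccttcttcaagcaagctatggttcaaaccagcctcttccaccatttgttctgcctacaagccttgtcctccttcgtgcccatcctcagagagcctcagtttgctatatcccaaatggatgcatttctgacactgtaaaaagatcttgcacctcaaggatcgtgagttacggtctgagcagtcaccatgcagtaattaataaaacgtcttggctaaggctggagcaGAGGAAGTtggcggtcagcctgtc
Mgst2 (chr3:51660929-51661178, plus strand): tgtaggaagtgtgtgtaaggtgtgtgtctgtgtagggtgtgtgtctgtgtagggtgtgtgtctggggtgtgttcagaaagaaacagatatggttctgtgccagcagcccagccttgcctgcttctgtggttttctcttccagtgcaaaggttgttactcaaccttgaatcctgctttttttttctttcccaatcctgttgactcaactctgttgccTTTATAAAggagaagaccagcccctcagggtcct
In this window Ptgs1 held GAGGAAGT once, beginning 24 bases before the start, a motif present in 2.44% of the 32851 windows of this length. Mgst2 held TATAAA on both strands in an overlapping stretch beginning 34 bases before the start, and 12.4% of all windows held that motif. The pair shared no searched motif, and a match is only a match of letters.

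In TAM, the prostaglandin D2 and thromboxane synthases and the cyclooxygenase Ptgs2 stood higher in Shp2f/fLysMcre than in Shp2f/f cells, while the prostaglandin E synthase Ptges stood lower. Alox5ap was higher and Lta4h slightly lower, and Alox5 itself differed little. The same question was asked here for the macrophages of the tumor. Of the 10 enzymes 6 were called, 4 higher and 2 lower, where 50.2% of all 14446 genes tested were called, 23.9% higher and 26.3% lower. The groups did not overlap for 7 of the 10, as for 57.9% of all genes tested.

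Ptgs2 (ENSMUSG00000032487) was at 897, 973 and 959.8 CPM in Shp2f/f TAM and at 1104, 1164 and 1267 CPM in Shp2f/fLysMcre TAM, and all 3 of the latter lay above all 3 of the former. The log2 fold change was 0.29 (SE 0.052), or 1.22-fold. Ptgs1 was at 15.2, 15.8 and 15.5 CPM in Shp2f/f and at 15.4, 15.1 and 15.5 CPM in Shp2f/fLysMcre TAM, with overlapping groups and a log2 fold change of -0.05 (SE 0.053). Per kilobase, Ptgs2 made up 98.1 ± 0.0495% (SD, n = 3) of the summed cyclooxygenase RPKM in Shp2f/f TAM and 98.5 ± 0.0986% (SD, n = 3) in Shp2f/fLysMcre TAM. Cyclooxygenase transcripts of TAM were almost all COX-2 in both genotypes.

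Hpgds (ENSMUSG00000029919) showed the largest difference of the 10 in TAM. It was at 35.8, 32.3 and 34.9 CPM in Shp2f/f and at 73.9, 80.2 and 80.4 CPM in Shp2f/fLysMcre TAM, a log2 fold change of 1.15 (SE 0.055) and 2.22-fold. Tbxas1 was at 37.4, 37.8 and 36.6 CPM in Shp2f/f and at 55.1, 57.4 and 56.8 CPM in Shp2f/fLysMcre TAM (log2 fold change 0.56, SE 0.041). Ptges went the other way, from 22.3, 23.4 and 22.0 CPM to 16.9, 19.2 and 17.1 CPM (log2 fold change -0.38, SE 0.059). All 3 synthases were called and none overlapped between the genotypes.

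These opposite directions shifted the transcript make-up of these 3 terminal synthases, which compete for prostaglandin H2. Other prostanoid synthases are outside the shares. Among them, Prxl2b was at 30.6 and 55.2 RPKM and Ptges3 at 29.8 and 24.9 RPKM in Shp2f/f and Shp2f/fLysMcre TAM. Per kilobase, Ptges made up 37.8 ± 1.34% (SD, n = 3) of the summed RPKM of Ptges, Hpgds and Tbxas1 in Shp2f/f TAM and 19.7 ± 0.914% (SD, n = 3) in Shp2f/fLysMcre TAM. Hpgds made up 35.2 ± 1.72% and 53.2 ± 0.859% (SD, n = 3 each). Tbxas1 stayed at 27.0 ± 0.384% and 27.1 ± 0.54% (SD, n = 3 each). The shares depend on the length used. With the longest transcript as the length, Hpgds, Tbxas1 and Ptges were at 8.83, 8.17 and 6.19 RPKM in Shp2f/f TAM. Ptges was then the lowest of the 3 in that group rather than the highest. In Shp2f/fLysMcre TAM they were at 20.1, 12.4 and 4.87 RPKM. In MDSC the Tbxas1 transcript held the largest share in Shp2f/f cells, with 54.5 ± 3.42% (SD, n = 2), and Hpgds the smallest, with 10.7 ± 1.22% (SD, n = 2). Shp2f/fLysMcre MDSC had 41.7 ± 6.21% Ptges, 12.8 ± 5.29% Hpgds and 45.4 ± 11.5% Tbxas1 (SD, n = 2 each).

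**Figure D2:**
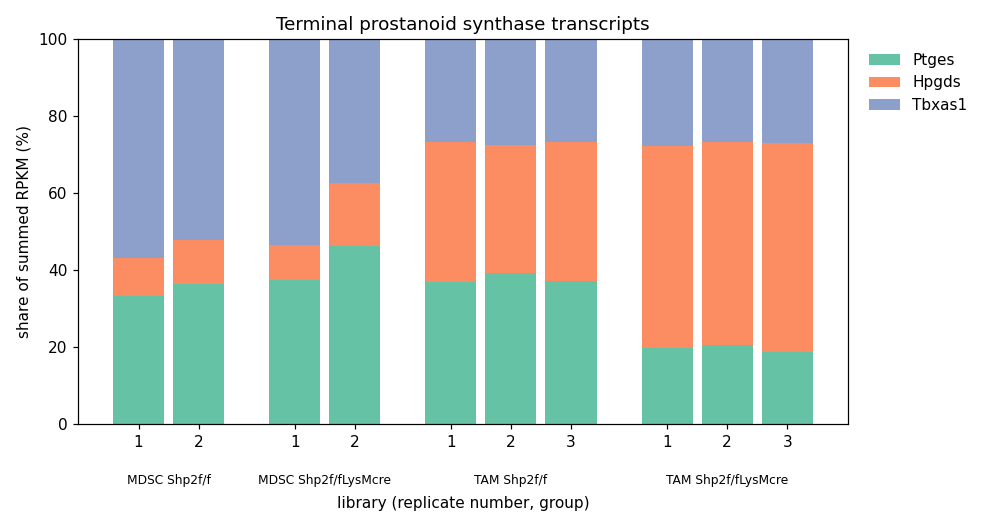
Share of Ptges, Hpgds and Tbxas1 in their summed RPKM, in percent, with 1 stacked bar per library grouped by cell type and genotype. RPKM are per union of exons, other prostanoid synthases are left out, and the shares depend on the length used. Ptges falls from 37.8% to 19.7% on average and Hpgds rises from 35.2% to 53.2% between Shp2f/f and Shp2f/fLysMcre TAM, while Tbxas1 stays near 27%.

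In the leukotriene branch of TAM, Alox5ap was at 246, 260.5 and 239 CPM in Shp2f/f and at 346, 328 and 307 CPM in Shp2f/fLysMcre, a called difference of 0.36 (SE 0.049) on the log2 scale. Alox5 was at 6.16, 6.33 and 5.75 CPM and at 6.69, 6.74 and 6.50 CPM, which did not overlap but was not called (log2 fold change 0.09, SE 0.082). Lta4h was at 68.3, 72.5 and 65.3 CPM in Shp2f/f and at 63.5, 65.8 and 62.0 CPM in Shp2f/fLysMcre TAM. Its groups overlapped, and the call of -0.14 (SE 0.044) was lost without Shp2f/f replicate 2 (-0.09) or without Shp2f/fLysMcre replicate 3 (-0.12).

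The enzymes of the cysteinyl leukotriene step were scarce in TAM. Ltc4s was at 1.33, 1.25 and 0.87 CPM in Shp2f/f and at 1.03, 1.42 and 0.77 CPM in Shp2f/fLysMcre, and Mgst2 was at 0.80, 0.81 and 0.74 CPM and at 0.55, 0.68 and 0.66 CPM. Neither was called, and the log2 fold change was -0.12 for Ltc4s (SE 0.271) and -0.34 for Mgst2 (SE 0.243).

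The directions of the 6 called enzymes were the same under every alternative of the fit, although Ptgs2, Ptges and Lta4h were not called in 1 fit of all 4 groups. Scaling by total counts lowered the median of all genes in TAM to -0.11 on the log2 scale, which turned the split of all calls from 3452 higher and 3805 lower into 2341 higher and 5225 lower, and Ptgs1 was then called lower at -0.15. Macrophage markers were higher, like Ptgs2, Hpgds, Tbxas1 and Alox5ap and unlike Ptges and Lta4h. A list of 10 platelet and megakaryocyte genes summed to 150.6 to 160.2 CPM in Shp2f/f TAM and 304.3 to 310.9 CPM in Shp2f/fLysMcre TAM. Of that list 4 genes were tested and 2 were called higher. Most of its sum was Ppbp, a chemokine gene named here after its values were seen, at 145.5, 158.1 and 155.1 CPM in Shp2f/f and at 336.4, 332.2 and 318.5 CPM in Shp2f/fLysMcre TAM. The defining Gp1ba was at 0 to 0.03 CPM in both TAM groups. Mast cells also express Hpgds and Ltc4s, and a list of 10 mast cell and basophil genes summed to 7.25 to 12.4 CPM in Shp2f/f TAM and 7.08 to 8.88 CPM in Shp2f/fLysMcre TAM, with 0 of 5 tested genes called. Of the T and NK cell list 5 of 5 genes were called lower and of the dendritic cell list 3 of 4 tested lower. The fibroblast list had 4 of 9 lower and 1 higher, the neutrophil list 5 of 10 tested higher and 1 lower, and the erythroid list 3 of 4 tested higher. Among all genes tested in TAM, 23.9% were called higher and 26.3% lower. The neutrophil list summed to 4365 to 4592 CPM in Shp2f/f TAM and 2294 to 2350 CPM in Shp2f/fLysMcre TAM. Most of that sum was Mmp9, named here after its values were seen, at 3977 to 4256 CPM in Shp2f/f TAM and 1945 to 2050 CPM in Shp2f/fLysMcre TAM. The part of these markers in the results was not tested.

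The upstream windows of Ptgs2, the most abundant cyclooxygenase transcript, and of Hpgds, with the largest difference in TAM, are shown in the same way. In the GENCODE annotation Hpgds starts at base 65144908 on the minus strand, so most of its window lies inside the gene there.
Ptgs2 (chr1:150099781-150100030, plus strand): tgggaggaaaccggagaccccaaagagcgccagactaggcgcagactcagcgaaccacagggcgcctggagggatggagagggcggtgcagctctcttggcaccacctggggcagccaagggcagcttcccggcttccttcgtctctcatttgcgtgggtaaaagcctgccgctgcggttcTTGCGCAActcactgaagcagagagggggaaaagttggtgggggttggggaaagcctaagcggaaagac
Hpgds (chr6:65144731-65144980, minus strand): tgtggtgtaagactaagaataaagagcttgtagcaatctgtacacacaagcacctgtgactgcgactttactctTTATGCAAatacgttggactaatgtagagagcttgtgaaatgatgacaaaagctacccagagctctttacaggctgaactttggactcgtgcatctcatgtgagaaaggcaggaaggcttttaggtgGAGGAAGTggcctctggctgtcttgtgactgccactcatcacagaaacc
Ptgs2 held TTGCNNAA once, beginning 69 bases before the start, and Hpgds held it once, beginning 176 bases before the start, while 9.56% of all windows did. Hpgds also held GAGGAAGT, beginning 49 bases before the start, as did the Ptgs1 window above. None of the 9 member windows held TGACGTCA or CACGTG, which 1.55% and 6.02% of all windows held.

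**Figure D3:**
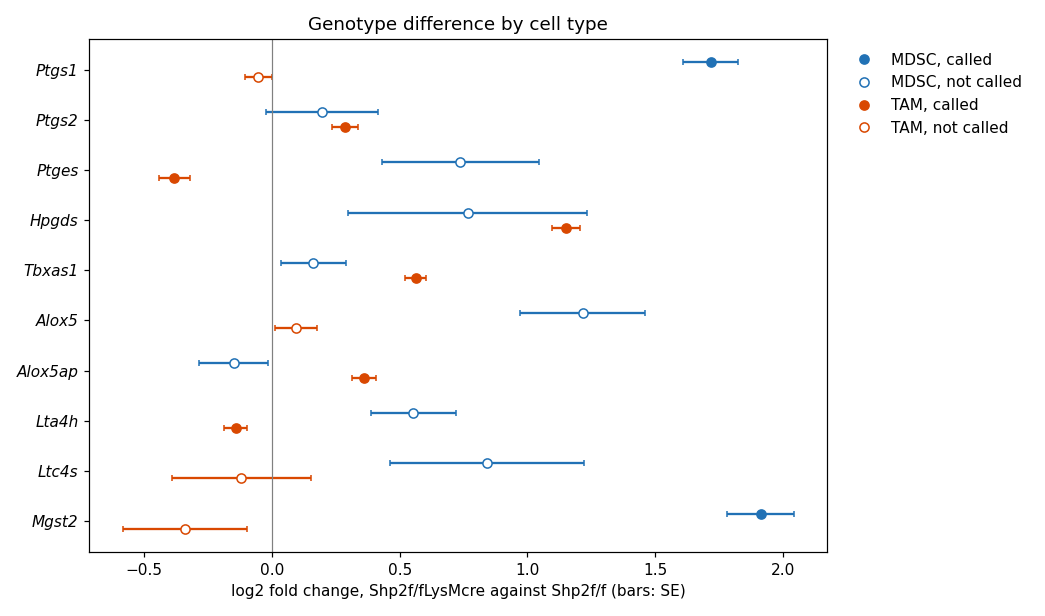
Log2 fold change of each enzyme between Shp2f/fLysMcre and Shp2f/f cells (x axis), in MDSC (blue) and TAM (orange), with bars for the SE; filled points were called in the fit across all genes and open points were not. Ptgs1 at 1.72 and Mgst2 at 1.91 are the called points of MDSC, and Hpgds at 1.15 lies farthest from 0 in TAM.

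Between the cell types the branches were split. With SHP-2 intact, TAM had more of the prostanoid enzymes Ptgs2, Ptges, Hpgds and Tbxas1 than MDSC, and MDSC had more of the leukotriene enzymes Alox5, Alox5ap, Lta4h and Mgst2. Of the 10 enzymes 8 were called between the Shp2f/f groups, 4 higher and 4 lower in TAM, where 78.8% of all 15659 genes tested were called, 40% higher and 38.8% lower. The groups did not overlap for 9 of the 10, as for 86% of all genes tested. Cell type, organ and isolation method differed together here and cannot be told apart.

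Hpgds was higher in TAM by 4.28 on the log2 scale (SE 0.121), from 1.76 ± 0.402 CPM (SD, n = 2) in MDSC to 34.4 ± 1.83 CPM (SD, n = 3) in TAM. Ptgs2 was higher by 3.94 (SE 0.0817), from 61.2 ± 6.53 CPM (SD, n = 2) to 943 ± 40.8 CPM (SD, n = 3). The log2 fold changes of Ptges and Tbxas1 were 2.69 (SE 0.103) and 1.57 (SE 0.0618). In the other direction, Mgst2 was lower in TAM by -3.27 (SE 0.149), from 7.54 ± 0.0286 CPM (SD, n = 2) to 0.78 ± 0.0391 CPM (SD, n = 3). Alox5ap, Alox5 and Lta4h had log2 fold changes of -2.42 (SE 0.059), -2.17 (SE 0.112) and -1.72 (SE 0.0519). Ptgs1 and Ltc4s were not called, at -0.15 (SE 0.0627) and 0.24 (SE 0.279).

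Ranked per kilobase of exon, Alox5ap led in Shp2f/f MDSC with 937 ± 76.3 RPKM (SD, n = 2), followed by Lta4h with 37.0 ± 1.53 RPKM and Ptgs2 with 13.4 ± 1.43 RPKM (SD, n = 2 each). Below them came Alox5, Ptgs1, Mgst2, Tbxas1, Ltc4s, Ptges and Hpgds, and of all neighbors in this order only Ltc4s and Ptges overlapped. In Shp2f/fLysMcre MDSC, Alox5, Ptgs2 and Ptgs1 overlapped as neighbors at 15.5 ± 4.53, 15.4 ± 4.41 and 14.6 ± 0.715 RPKM (SD, n = 2 each), and so did Ltc4s, Tbxas1 and Ptges.

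In Shp2f/f TAM, Ptgs2 led with 205.9 ± 8.9 RPKM, followed by Alox5ap with 175 ± 7.61 RPKM and Lta4h with 11.3 ± 0.593 RPKM (SD, n = 3 each). Ptges, Hpgds, Tbxas1, Ptgs1, Alox5, Ltc4s and Mgst2 followed, with overlap between Tbxas1 and Ptgs1. In Shp2f/fLysMcre TAM, Ptgs2 and Alox5ap overlapped at 257 ± 18.0 and 230.3 ± 13.9 RPKM (SD, n = 3 each), and Hpgds stood in the place after them with 12.2 ± 0.579 RPKM (SD, n = 3). Ranks in the middle of the order moved when the longest transcript replaced the union of exons as the length, and Ptgs2 and Alox5ap then overlapped in Shp2f/f TAM as well. Exons of Alox5ap, Ltc4s, Ptgs1 and Tbxas1 overlap genes of the opposite strand on 189, 268, 148 and 144 bases, and the strand setting of the counting was not given in the sources used here, so their levels are uncertain to that extent.

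The genotype differences of the cell types were set against each other in 1 fit of all 10 libraries. This fit used 1 spread per gene for both cell types, although the common coefficient of variation was 0.189 in the MDSC fit and 0.0595 in the TAM fit. The SE of Ptgs1, Ptges, Alox5 and Lta4h below are thus smaller than those in MDSC alone (0.108, 0.306, 0.243 and 0.167). The same holds for Tbxas1 and Alox5ap (0.128 and 0.135 in MDSC alone) and for Ptgs2 and Hpgds (0.220 and 0.469). Of all these, only Ptgs1 was called in MDSC alone. Of the 10 enzymes 7 were called for the difference of TAM minus MDSC, where 24.9% of all 16581 genes tested were called, 12.2% higher and 12.7% lower. Ptgs1 (-1.74, SE 0.0875, log2) and Mgst2 (-2.23, SE 0.187) differed most. Ptges (-1.10, SE 0.269) and Lta4h (-0.66, SE 0.145) had positive fitted differences in MDSC, not called there, and were called lower in TAM. Ptgs1, Mgst2 and Alox5ap also had opposite signs in the cell types, each called in only 1 of them. Alox5 (-1.09, SE 0.242) was a further enzyme with the larger difference in MDSC. Tbxas1 (0.43, SE 0.086) and Alox5ap (0.54, SE 0.123) had the more positive difference in TAM. Ptgs2 (0.12, SE 0.21), Hpgds (0.40, SE 0.401) and Ltc4s (-0.94, SE 0.503) were not called.

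Outside the synthesis enzymes, a list of 62 other eicosanoid genes covered arachidonate release and reacylation, other synthases and lipoxygenases, later steps, transport, inactivation and receptors. In TAM 38 of them were tested and 24 were called, 15 higher and 9 lower in Shp2f/fLysMcre, where 50.2% of all genes tested were called, 23.9% higher and 26.3% lower, with a median log2 fold change of 0.18 against -0.01 over all genes. In MDSC 42 were tested and 3 were called, 2 higher and 1 lower, where 4.28% of all genes tested were called, with a median of 0.02 against -0.01 over all genes. All receptors that were called in TAM were higher, while the enzymes of prostaglandin synthesis went both ways. Adjusted p-values of this list come from the same edgeR quasi-likelihood fits over all genes.

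Among the receptors, 3 of 5 tested prostanoid receptors and 3 of 3 tested leukotriene receptors were called higher in TAM, where 23.9% of all genes tested were called higher. In MDSC 0 of 10 were called, where 4.28% of all genes tested were called. Ptger4, the prostaglandin E2 receptor EP4, rose from 28.2 ± 0.825 to 50.9 ± 0.334 CPM (SD, n = 3 each; log2 fold change 0.81, edgeR adjusted p = 8.38e-08). Ptger2, or EP2, rose from 3.92 ± 0.142 to 5.23 ± 0.817 CPM (0.37, edgeR adjusted p = 0.0304) and the prostacyclin receptor Ptgir from 2.58 ± 0.502 to 3.68 ± 0.342 CPM (0.47, edgeR adjusted p = 0.0308), but the first call was lost without any 1 of the TAM Shp2f/f libraries or Shp2f/fLysMcre replicates 2 or 3 (0.25 to 0.47 over all alternatives), and the second without Shp2f/f replicates 1 or 3 or Shp2f/fLysMcre replicates 2 or 3 (0.34 to 0.63). Cysltr1, the main cysteinyl leukotriene receptor, rose from 70.4 ± 5.8 to 107.3 ± 6.72 CPM (0.57, edgeR adjusted p = 1.81e-05) and lies on chromosome X. The leukotriene B4 receptor Ltb4r1 rose from 45.3 ± 1.05 to 55.7 ± 2.5 CPM (0.26, edgeR adjusted p = 0.00057). The remaining called receptor stayed below 5 CPM in every group.

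Of the 5 other prostanoid synthases tested in TAM all 5 were called, where 50.2% of all genes tested were called. Prxl2b, which makes prostaglandin F2, rose by 0.82 on the log2 scale (31.4 ± 1.12 to 56.7 ± 4.83 CPM, SD, n = 3 each; edgeR adjusted p = 9.98e-07), and the carbonyl reductase Cbr1 rose by 0.22. The alternative prostaglandin E synthases Ptges2 and Ptges3 fell by 0.36 (edgeR adjusted p = 0.00214) and 0.30 (edgeR adjusted p = 0.000847) on the log2 scale, the same direction as Ptges. The aldose reductase Akr1b3 fell by 0.20, a call lost without TAM Shp2f/fLysMcre replicate 2. In MDSC 0 of 6 tested were called, where 4.28% of all genes tested were called. Log2 fold changes there were 0.11 for Ptges2 and -0.22 for Ptges3.

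Mgst1 and Mgst3, which belong with Mgst2 and Ltc4s to the MAPEG family of membrane enzymes, were called in TAM in opposite directions. Of all genes tested there, 50.2% were called. Mgst1 rose from 5.21 ± 0.281 to 11.6 ± 0.4 CPM (log2 fold change 1.11, edgeR adjusted p = 5.54e-07) and Mgst3 fell from 16.6 ± 0.683 to 12.1 ± 1.1 CPM (-0.49, edgeR adjusted p = 0.000232; SD, n = 3 each). In MDSC neither was called, with log2 fold changes of 0.30 and 0.54. Of the enzymes that trim cysteinyl leukotrienes, Ggt5, which cuts leukotriene C4, rose in TAM by 0.79 (edgeR adjusted p = 1.3e-05), and the dipeptidase gene Dpep3 fell by 0.33 (edgeR adjusted p = 0.0383), a call kept in 4 of 13 alternatives. In MDSC, Ggt1 rose from 4.36 ± 0.285 to 11.5 ± 0.066 CPM (SD, n = 2 each; log2 fold change 1.40, edgeR adjusted p = 0.019). Dpep2, a dipeptidase that makes leukotriene E4, fell from 22.9 ± 1.37 to 13.1 ± 1.02 CPM (SD, n = 2 each; -0.82, edgeR adjusted p = 0.0351). The annotation holds a second entry named Dpep2 on the same strand, which shares 1585 exon bases with the entry used. Counts of that second entry are not given here, so the fall is that of 1 entry of the gene. The entry used also shares exon bases with several neighboring genes. Both MDSC calls were lost without either Shp2f/f library and with no filter on low counts, at log2 values between 1.33 and 1.46 for Ggt1 and between -0.94 and -0.73 for Dpep2.

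For the supply of arachidonic acid, 2 of 6 tested phospholipase genes were called in TAM, both lower. Of all genes tested in TAM, 23.9% were called higher and 26.3% lower. The secreted phospholipase gene Pla2g12a fell from 17.2 ± 1.77 to 13.2 ± 0.301 CPM (SD, n = 3 each; -0.42, edgeR adjusted p = 0.000821). The other was Pla2g2f, named here after its values were seen, which was at 0.77, 0.50 and 2.02 CPM in Shp2f/f TAM and at 0.03, 0 and 0 CPM in Shp2f/fLysMcre TAM. Pla2g4a, the cytosolic phospholipase, was also named afterwards and was not called (log2 fold change 0.01, edgeR adjusted p = 0.847). Mboat7 and Lpcat3, which return arachidonate to phospholipids, rose by 0.40 (edgeR adjusted p = 2.28e-05) and 0.22 (edgeR adjusted p = 0.00206), and each shares exon bases with a gene on the opposite strand.

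Among 8 tested transport and inactivation genes, 2 were called higher and 2 lower in TAM, where 50.2% of all genes tested were called. Ptgr1, which inactivates leukotriene B4 and prostaglandins, rose by 0.49 (24.1 ± 1.15 to 34.5 ± 2.23 CPM, SD, n = 3 each; edgeR adjusted p = 3.46e-05), and Cyp4f13 rose by 0.36. The exporters Abcc1 and Abcc4, which carry leukotriene C4 and prostaglandin E2, fell by 0.14 and 0.16 on the log2 scale, and the call of Abcc4 was lost without TAM Shp2f/f replicate 3. Between the cell types of Shp2f/f mice 46 list genes were tested and 41 called, 18 higher and 23 lower in TAM. Of all genes tested there, 78.8% were called, 40% higher and 38.8% lower. Hpgd, the main prostaglandin-degrading dehydrogenase, was singled out after its values were seen and was at 28.1 ± 1.84 CPM (SD, n = 2) in MDSC and 0.257 ± 0.0817 CPM (SD, n = 3) in TAM (log2 fold change -6.75, edgeR adjusted p = 1.77e-10).

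**Figure D4:**
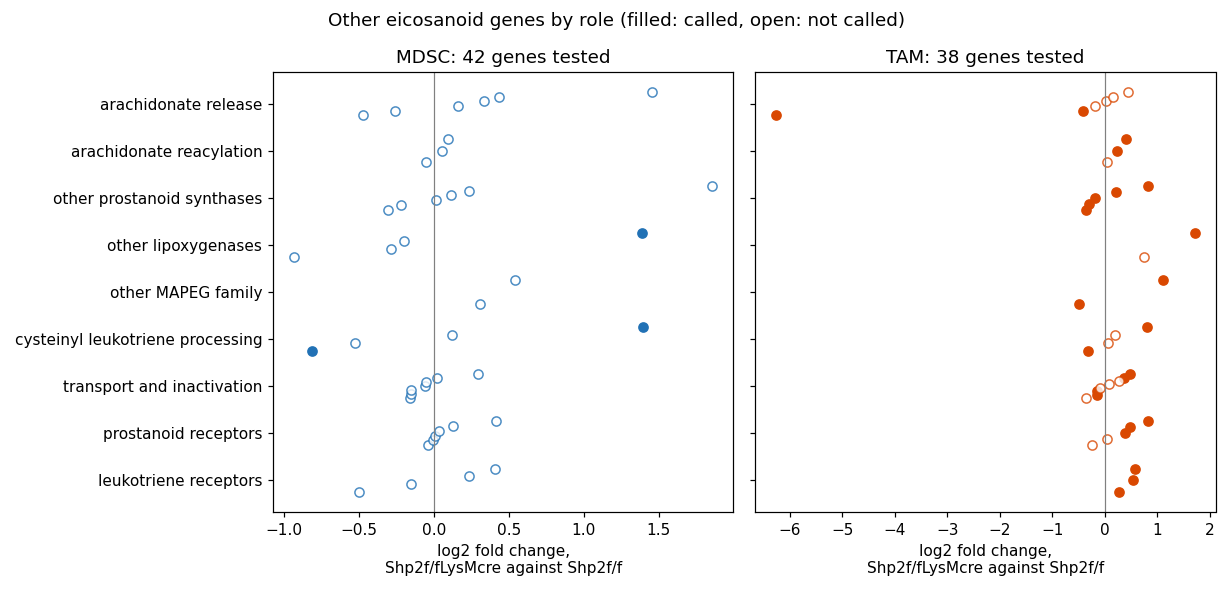
Log2 fold change between Shp2f/fLysMcre and Shp2f/f cells (x axis, with a different range in each panel) of the other eicosanoid genes tested in MDSC (42) and TAM (38), with 1 point per gene in rows by role; filled points were called and open points were not. Few points are filled in MDSC, the filled receptor points of TAM all lie above 0, and the point far to the left in TAM is Pla2g2f, a gene near 1 CPM.

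Genes with the most similar profile were sought among 13146 genes tested in both genotype comparisons, by the root mean square difference of centered log2(CPM + 1) values over all 10 libraries. For Ptgs2 these were Siglec1 (0.09), Car13 (0.185) and Hyal1 (0.204), where the profile of Ptgs2 itself had a root mean square of 1.97. For Alox5 they were Crispld2 (0.155), Asprv1 (0.182) and Ankrd22 (0.193), beside 1.30 for Alox5 itself. These likenesses are dominated by the gap between the cell types and are given as a description.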

How the data were processed

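RNA-seq was performed on 4 MDSC and 6 TAM libraries, grouped by their titles. Per the labels and the study's methods, the authors prepared stranded poly(A) libraries, removed adapters with cutadapt 2.5, aligned reads with STAR 2.7.3a to GRCm38 and counted them per Ensembl gene with featureCounts (Subread 1.6.2). The deposited values used were raw counts, not normalized, and a second deposited table of size-factor scaled values was not used. Genes were kept by filterByExpr (minimum count 10), scaled by TMM and tested with the quasi-likelihood F test of edgeR 4.0.16 (R 4.3.3) between genotypes within each cell type, between Shp2f/f groups, and for the interaction over all 10 libraries. P-values were adjusted by Benjamini-Hochberg, with calls under 0.05. The printed CPM use 1 scaling of all 10 libraries, so ratios of printed means differ from fitted log2 fold changes by up to 0.0367. RPKM divide CPM by the exon union of the GENCODE annotation, which matched 99.7% of gene IDs. Replicate libraries differed by 4.46 to 58.1 chi-square per degree of freedom, so none was a repeat deposit. Nothing says that replicates are separate animals, so p-values measure only the spread between these libraries. Both cell types came from the same mice, and no term for the mouse was fitted because the labels do not link the libraries. Members and lists were chosen with earlier results of these data known. Named list genes were those called in either genotype comparison with a group mean of at least 5 CPM, and others are named where stated. The fits were tested on simulated data. Alternatives were the DESeq2 1.42.0 Wald test, other scalings and filters, 1 fit of all groups, a replicate block, omission of each library and another gene length.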

Additional observations from a re-analysis of the deposited data

Results flagged for a closer look

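The interaction term of edgeR called 7 of the 10 synthesis enzymes and 15 of 47 other eicosanoid genes tested, where 24.9% of all genes tested were called. These were called as unequal in their genotype difference between TAM and MDSC (log2 values, TAM minus MDSC). The fit used 1 spread per gene for both cell types. The enzymes were Ptgs1 (-1.74), Mgst2 (-2.23), Ptges (-1.10), Alox5 (-1.09), Lta4h (-0.66), Alox5ap (0.54) and Tbxas1 (0.43). For Ptgs1, Mgst2 and Tbxas1 the call was made in every alternative and every omission of a library. Ptges lost it without MDSC Shp2f/f replicate 1, Alox5 and Alox5ap without MDSC Shp2f/f replicate 2, and Lta4h without either, and Alox5ap also lost it with scaling by total counts.

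Of the other eicosanoid genes that met the rule for naming, the receptors Cysltr1 (1.10), Ptger4 (0.81) and Ltb4r1 (0.45) had the more positive difference in TAM. So did the enzymes Dpep2 (1.04, for the 1 entry described above), Mgst1 (0.84), Prxl2b (0.83), Ggt5 (0.70), Ptgr1 (0.57) and Mboat7 (0.34). Mgst3 (-1.003), Pla2g12a (-0.72) and Ptges2 (-0.44) had the more negative difference in TAM. The remaining 3 did not meet that rule and are named after their values were seen, with a more negative difference for Slco2a1 (-3.53) and Pla2g4c (-1.61) and a more positive one for Alox12 (2.67), all under 5 CPM in every group.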

How the results depend on the processing

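The alternatives moved MDSC more than TAM. In MDSC all calls went from 633 to 1236 with DESeq2, 130 with no filter and 2666 in 1 fit of all groups, and to between 1 and 4406 when 1 library was left out. Enzymes called there went from 2 to 4, 2 and 5 under the same alternatives (0 to 6 over omissions), and other eicosanoid genes from 3 to 5, 0 and 7 (0 to 13). In TAM, 1 fit of all groups gave 4837 calls in place of 7257 and 3 called enzymes in place of 6, all higher, while omissions gave 6176 to 7316 calls, 5 to 6 enzymes and 20 to 24 other eicosanoid genes. Interaction calls, 4131 in the main comparison, ranged from 2446 without MDSC Shp2f/f replicate 2 to 7026 without MDSC Shp2f/fLysMcre replicate 1, with 2520 without MDSC Shp2f/f replicate 1. Scaling by total counts moved their split from 2029 higher and 2102 lower to 1235 and 3122, with a median of -0.18. Cell type calls stayed within 11599 to 12852. Of 21 named eicosanoid genes called in TAM, 14 were called in all 13 alternatives, and none of the 21 changed sign. Omissions that left 1 library in a group assume that it varies like the others.

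Groups share replicate numbers, but the numbers were not shown to pair the libraries. Between genotypes, deviations of same-numbered libraries correlated at 0.35 in MDSC and at -0.156, 0.0511 and 0.0188 in TAM. With 2 libraries per group, both MDSC pairs give the same value by construction. Between MDSC and TAM they correlated at 0.0518 and 0.0635 in Shp2f/f and at -0.0638 and -0.114 in Shp2f/fLysMcre libraries. With the replicate block, calls were 2674 in MDSC, 6897 in TAM, 5230 for the interaction and 12292 between cell types, with 5 and 6 enzymes and 6 and 23 other eicosanoid genes called in MDSC and TAM. At these depths Ltc4s, and Mgst2 in TAM, rest on about 1 CPM.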
